A study of Mus musculus with 4 samples.

Results

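CpG methylation was followed across 9 mouse genes that encode neurotransmitter transporters of synaptic vesicles and of the plasma membrane. The set was listed by name: Slc10a4, Slc32a1, Slc17a6, Slc17a7, Slc17a8, Slc18a2, Slc18a3, Slc6a3 and Slc6a5, out of 20807 autosomal protein-coding genes of the GENCODE vM21 annotation. Slc10a4 and Slc32a1 are the 2 among them that the study itself follows. The study took up both for higher methylation of Tet1 knockout brains in reduced representation bisulfite sequencing together with lower RNA. It reports the higher methylation in all of its diet groups and the significant loss of RNA under excess folic acid only. The sample list of that bisulfite sequencing holds the numbers of these 4 embryos, so the values of both genes here are not independent of that choice. All 9 genes were found, and all 9 had enough covered CpGs for a level of the promoter (the start site and 1 kb on each side), of the flanks (500 bp bins out to 5 kb on each side) and of the gene body.

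Whole-genome bisulfite sequencing (WGBS) was performed on whole embryonic brain of male embryos at E11.5, 1 embryo per library and 1 library per group. The strain was 129S6.cg Tet1tm1Koh, a B6-derived allele backcrossed to 129S6, in which an insertion at the first ATG of the coding sequence disrupts Tet1, the gene of a dioxygenase that oxidises 5-methylcytosine. The 4 groups were wild type (WT) and Tet1 knockout (KO) embryos of dams on excess folic acid (FA, 30 ppm) and WT and KO embryos of dams on control FA (3 ppm). All dams were Tet1 heterozygous and were fed a purified diet with succinylsulfathiazole from at least 4 weeks before mating, so the control embryos shared this background. The brain was taken from the forebrain to the hindbrain and holds neural progenitors, young neurons and other cells together. In the study's sample list the embryo numbers of both KO libraries carry a neural tube defect and those of both WT libraries do not, and no 2 come from the same litter. Genotype, phenotype and litter therefore cannot be told apart. The CpG tables hold no measure of the inserted cassette, so genotype was taken from the labels. With 1 library per group no value has an SD, and each test on reads weighs 1 embryo's library against another's, not one condition against another.

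Vesicular transporters use the proton gradient across the vesicle membrane to load transmitter before release, and which one a neuron makes largely sets what it can release. Slc32a1 encodes VGAT, which loads GABA and glycine. Slc17a6, Slc17a7 and Slc17a8 encode the vesicular glutamate transporters VGLUT2, VGLUT1 and VGLUT3. Slc18a2 encodes VMAT2, which loads dopamine, noradrenaline, serotonin and histamine, and Slc18a3 encodes VAChT, which loads acetylcholine. The Slc10a4 protein is a relative of bile acid carriers that resides on vesicles of cholinergic and monoaminergic neurons. At the plasma membrane, Slc6a3 encodes DAT, which takes up dopamine, and Slc6a5 encodes GlyT2, which supplies glycinergic terminals with glycine. CpG islands at gene starts are usually unmethylated, the CpG-poorer sequence around them is usually methylated, and TET enzymes are known to act at the boundaries.

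The mean depth was 13.2 reads per listed CpG in KO 30 ppm, 14.3 in WT 30 ppm, 21.2 in KO 3 ppm and 16.2 in WT 3 ppm. The 14907672 autosomal CpGs that reached 5 reads in every library were used, and a level is the percentage of methylated reads summed over the CpGs of a region. Their mean level was 83.5%, 81.4%, 82.8% and 82.1% in the same order. Mitochondrial CpGs, the background for incomplete conversion, read 0.914% to 0.938%. These libraries were converted with bisulfite alone, whereas the study's reduced representation sequencing added an oxidative step to read 5-methylcytosine only. The levels here therefore do not separate 5-methylcytosine from 5-hydroxymethylcytosine, its first oxidised form. By dot blot the study found the latter close to background in WT and KO brains of this stage. Coverage was uneven among the promoters: 49 of 51 CG sites were usable at Slc17a6 but 30 of 144 at Slc32a1, 30 of 81 at Slc10a4, 6 of 62 at Slc17a7 and 6 of 73 at Slc18a2. The missing sites lie mostly in the CG-dense part at the start, so the levels of those promoters describe their covered CpGs.

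By pooled level the promoters fell into a low and a higher group, and in both diets the KO library was above the WT library at each of them, as it was at 77.3% of all promoters at 30 ppm and 75.0% at 3 ppm. A pooled level averages over the window, so a promoter of the higher group can hold a stretch that is low in WT, as given for Slc6a3 and Slc17a8 below. Slc32a1, Slc18a3, Slc6a5 and Slc17a6 stayed between 1.14% and 10.1% in every library. The other 5 ranged from 33.3% at Slc6a3 in WT 3 ppm to 89.0% at Slc17a8 in KO 30 ppm. Within the low group the 95% Wilson intervals of neighbouring genes overlapped in each library, so their order is not resolved. Slc17a8 was the highest in each library, and its interval did not overlap that of Slc10a4, the next. At 8 of the 9 promoters both KO levels were above both WT levels, which was also so at 54.1% of all promoters. The exception was Slc17a7.

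**Figure D1:**
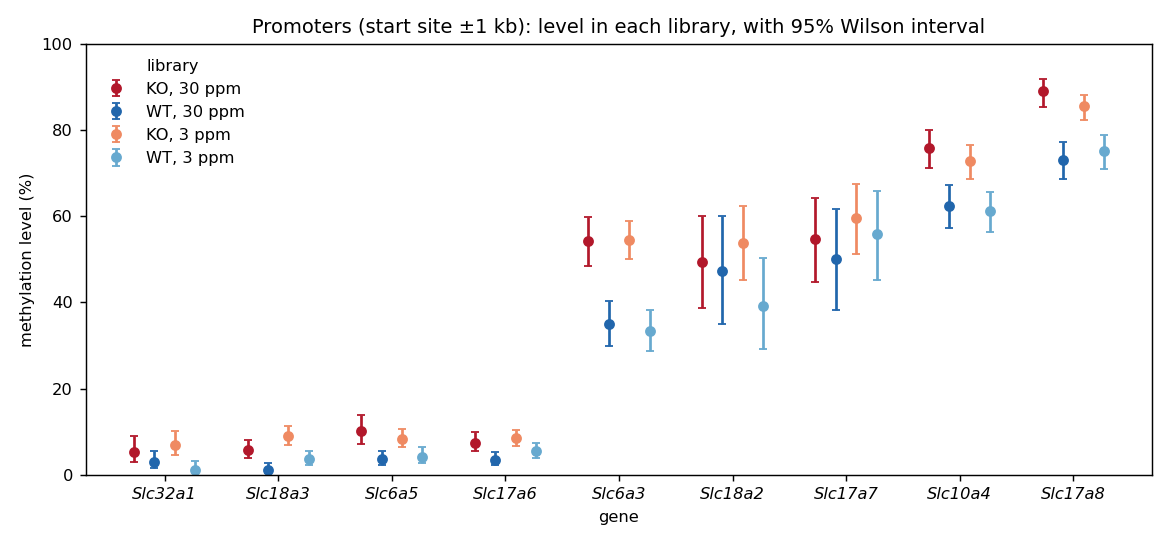
Methylation level (y axis, %) of each promoter (x axis, start site with 1 kb on each side) in the 4 libraries, with 95% Wilson intervals as bars. Slc32a1, Slc18a3, Slc6a5 and Slc17a6 lie at 10.1% or below in every library, and the KO points of Slc6a3, Slc6a5, Slc10a4 and Slc17a8 lie above both WT points with no overlap of the intervals. The share of all promoters separated in this way was not computed.

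A region was called when Fisher's exact test on its reads gave an adjusted p under 0.05, with Benjamini-Hochberg adjustment over all regions of its kind, and the levels differed by at least 10 percentage points (points). At 30 ppm 3 of the 9 promoters were called higher in KO, against 15.4% of the 19924 promoters tested, and at 3 ppm again 3 of 9, against 16.6%. The called promoters were those of Slc6a3, Slc17a8 and Slc10a4 in both diets, and none was called lower (0.331% and 0.381% of all). At 30 ppm the median difference of the 9 was 4.64 points, beside 3.93 points over all promoters, and at 3 ppm it was 5.78 points, beside 3.31 points. Other promoters passed the p threshold with differences under 10 points. At 30 ppm these were Slc18a3 (adjusted p = 0.00244), Slc6a5 (0.00343) and Slc17a6 (0.0276) by Fisher's exact test. At 3 ppm they were Slc18a3 (adjusted p = 0.00159), Slc32a1 (0.0034) and Slc6a5 (0.0241) by the same test. The share of all promoters that passed by p alone was not counted. The direction of the shift was shared by the promoters as a whole, and whether the transporters exceeded it was not tested.

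The Slc6a3 promoter, that of the dopamine transporter, showed the largest gap in both diets. Its level was 54.2% in KO 30 ppm, 35.0% in WT 30 ppm, 54.5% in KO 3 ppm and 33.3% in WT 3 ppm over 27 CpGs. The KO minus WT difference was 19.2 points at 30 ppm (95% interval 11.2 to 26.7, adjusted p = 6.83e-05) and 21.2 points at 3 ppm (14.5 to 27.6, adjusted p = 4.86e-08, both by Fisher's exact test). It was also the promoter called under a minimum of 10 reads, where the other 2 calls were lost. With 2.5 kb on each side its differences were smaller, at 11.2 and 11.7 points, and still called.

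Limma, fitted to log2 of methylated over unmethylated reads with genotype and diet as terms, was the test in which the spread among the 4 libraries entered, with 1 residual degree of freedom per promoter. It called 4 of the 9 promoters at an adjusted p under 0.05, against 7.50% of all, namely Slc18a3, Slc6a5, Slc6a3 and Slc17a8, each higher in KO. Their log2 differences were 1.73 ± 0.30 (SE, adjusted p = 0.0309) for Slc18a3, 1.31 ± 0.28 (adjusted p = 0.0455) for Slc6a5, 1.19 ± 0.27 (adjusted p = 0.048) for Slc6a3 and 1.26 ± 0.29 (adjusted p = 0.0496) for Slc17a8, with limma. Slc32a1, at 1.60 ± 0.39, missed with an adjusted p of 0.056 and Slc10a4, at 0.84 ± 0.27, with 0.0991. At an unadjusted p under 0.05 the count was 7 of 9, against 28.9% of all promoters. The limma calls were close to the threshold. With a pseudocount of 0.5 Slc18a3 alone was called (adjusted p = 0.0446 with limma), and on the fraction scale or under a minimum of 10 reads none was. With no term for diet limma also called 4, with Slc32a1 (adjusted p = 0.0437) in place of Slc18a3 (adjusted p = 0.0599). Leaving out 1 library also meant dropping the term for diet, since 3 libraries leave no residual degree of freedom with it, and left 1 genotype with a lone library assumed to vary like the other. In these fits none of the 4 was called without KO 30 ppm or without KO 3 ppm, and 1 each without WT 30 ppm (Slc32a1, not among the 4) and without WT 3 ppm (Slc18a3). With the lone WT library set against the KO libraries of both diets, the Slc18a3 estimate was 1.01 without WT 30 ppm and 2.45 without WT 3 ppm. With all 4 libraries and diet as a term it was -0.49 under a minimum of 10 reads.

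The 500 bp bins showed where the differences lay. Of 180 bins around the 9 starts, 122 held at least 3 usable CpGs. At 30 ppm 24 of them were called higher in KO, 19.7% of the 122 against 3.70% of all 246512 bins, and at 3 ppm 23 were, 18.9% against 4.50%. None was called lower, against 0.0653% and 0.148%. Over all 122 bins the median difference was 6.05 points in the 30 ppm pair and 4.84 points in the 3 ppm pair, beside 2.47 and 1.38 points over the bins of all genes. The called bins, which had to differ by 10 points, had medians of 26.5 and 24.7 points. Altogether 32 bins of 8 genes were called in 1 diet or the other, 26.2% against 6.56% of all bins, and 15 in both, 12.3% against 1.64%. Slc18a2 had none. Both KO levels were above both WT levels in 67 of the 122 bins, against 34.5% of all bins.

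Called bins lay on both sides of the starts. In 1 diet or the other 21 of 63 downstream bins were called (33.3%, against 7.50% of all downstream bins) and 11 of 59 upstream bins (18.6%, against 5.59%). Of the 11 testable bins within 500 bp of a start 3 were called (27.3%, against 9.26% of all such bins), 2 of Slc17a8 and 1 of Slc6a3. No such bin of Slc10a4, Slc32a1, Slc17a6, Slc18a3 or Slc6a5 was called, and beyond 1 kb 23 of 98 bins were (23.5%, against 5.12%). Relative to CpG islands, found in the genome sequence as stretches of at least 200 bp with over 50% G and C and an observed over expected CpG ratio above 0.6, 9 of 32 bins in islands were called (28.1%, against 13% of all bins in islands). In shores, within 2 kb of an island, 19 of 58 were (32.8%, against 8.74%), and farther out 4 of 32 (12.5%, against 3.25%). The classes thus differed over the genome too, and the excess of the transporter bins in each was not tested.

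**Figure D2:**
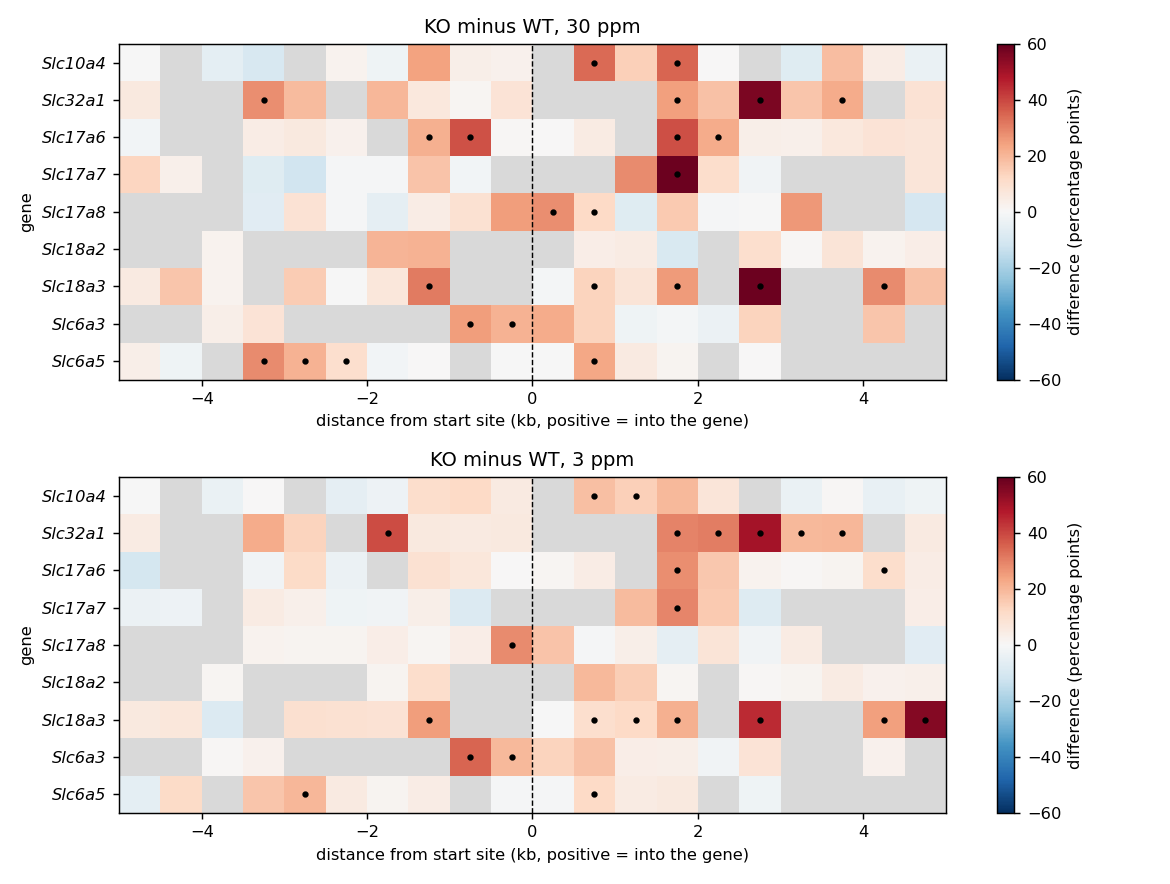
KO minus WT difference in methylation (colour, percentage points) of 500 bp bins by distance from the start site (x axis, kb) for the 9 genes (rows), at 30 ppm above and 3 ppm below. Black dots mark called bins, 24 and 23 of 122, and grey bins had fewer than 3 usable CpGs. Dots lie out to 5 kb downstream and 3.5 kb upstream, and within 500 bp of the start they mark Slc17a8 and Slc6a3 alone.

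The share of called bins differed with the level in WT, when the class was taken from the WT library of the other diet so that it shared no reads with the difference. At 30 ppm 11 of 26 bins at 10 to 60% methylation were called (42.3%, against 15.2% of all such bins), 11 of 35 bins below 10% (31.4%, against 4.87%) and 2 of 61 bins above 60% (3.28%, against 1.38%). At 3 ppm the counts were 12 of 26, 11 of 36 and 0 of 60, against 18.3%, 6.12% and 1.59% of all bins. So nearly all calls lay in bins of low and intermediate WT level, where the shares of the transporter bins were above those of all bins, an excess that was not tested. Bins near full methylation leave no room for a rise of 10 points, so the small share above 60% is partly set by the threshold.

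The pairs at 30 ppm and 3 ppm share no library, so each can be read in the bins that the other called. Of the 24 bins called at 30 ppm 23 were above 0 at 3 ppm (95.8%, against 92.3% of the 9133 bins called genome-wide), with a median of 19.7 points, beside 14.4 points. In that pair 62.5% were called too, against 44.4%. Of the 23 called at 3 ppm all 23 were above 0 at 30 ppm, against 94.3% of 11092, with a median of 23.4 points, beside 16.2 points, and 65.2% were called, against 36.5%. The share above 0 was thus near that of all called bins. The exception was the Slc17a8 bin from +500 to +999 bp, at 12.1 points and -0.75 points. Limma on the bins, added after the Fisher results were seen, called 0 of 122 and 0 of all bins, while 45 of 122 had an unadjusted p under 0.05, against 14.0% of all.

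**Figure D3:**
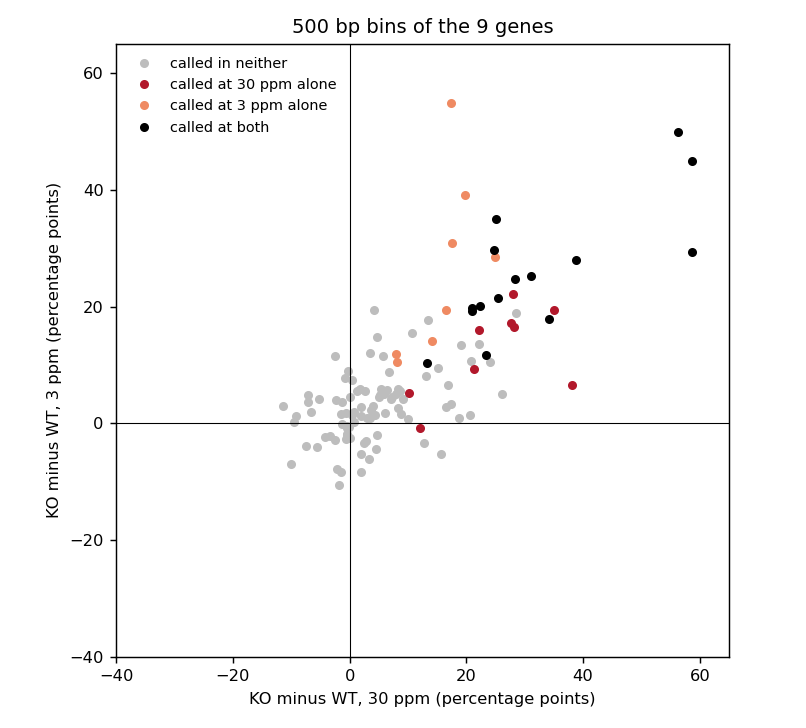
Each point is 1 of the 122 bins, with its KO minus WT difference at 30 ppm on the x axis and at 3 ppm on the y axis (percentage points). The 15 bins called in both diets (black) reach 58.7 points, and the bins called in either diet lie above 0 in the other with 1 exception, as did 92.3% and 94.3% of all bins called at 30 ppm and at 3 ppm.

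Slc32a1 (chr2:158610767-158615748, plus strand, GRCm38) had low levels at its covered promoter CpGs in all 4 libraries, with larger differences further into the gene and upstream. All 30 usable CpGs of the promoter window lie upstream of the start, so the part after the start was not measured. The promoter level was 5.29% (95% Wilson interval 3.05 to 9.01) in KO 30 ppm, 2.90% (1.53 to 5.42) in WT 30 ppm, 6.92% (4.69 to 10.1) in KO 3 ppm and 1.14% (0.387 to 3.29) in WT 3 ppm. The differences were 2.38 points (adjusted p = 0.375) and 5.78 points (adjusted p = 0.0034, both by Fisher's exact test). The 5 neighbouring bins from +1500 to +3999 bp were called in at least 1 diet, 3 of them in both, and cover the intron and the start of the second coding exon. In these bins, chosen as called, WT stayed between 2.02% and 13.7% and KO lay between 20.6% and 66.7%, with no overlap.

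The bin from +2500 to +2999 bp (chr2:158613267-158613766) had the largest mean difference of any called Slc32a1 bin. It read 66.7% (53.0 to 78.0) in KO 30 ppm, 10.3% (3.58 to 26.4) in WT 30 ppm, 58.0% (44.2 to 70.6) in KO 3 ppm and 8.16% (3.22 to 19.2) in WT 3 ppm, over 3 CpGs and 29 to 51 reads. The differences were 56.3 points (35.2 to 69.5, adjusted p = 0.000117) and 49.8 points (32.2 to 63.4, adjusted p = 1.57e-05, both by Fisher's exact test). Of the 5 neighbouring bins the one from +1500 to +1999 bp had the next largest, with 35.1%, 10.3%, 31.8% and 2.02% in the same order of libraries over 9 CpGs. The 3 usable CpGs of the bin from +2500 bp stand in the following stretch of the intron, shown because it carries the largest change of this gene, with each CG in capitals (RefSeq GRCm38 assembly, plus strand, 5′ to 3′).

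Slc32a1, chr2:158613267-158613336: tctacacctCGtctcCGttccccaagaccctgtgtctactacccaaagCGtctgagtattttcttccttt

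All 3 CpGs were higher in KO in both diets. The first, at base 10 of the stretch, read 78.9% in KO 30 ppm, 9.09% in WT 30 ppm, 66.7% in KO 3 ppm and 6.25% in WT 3 ppm. The second, at base 16, read 72.2%, 10%, 40% and 6.25%, and the third, at base 49, read 42.9%, 12.5%, 65% and 11.8%. The KO levels did not overlap the WT levels at any of them, at 8 to 20 reads per CpG and library. The bin was chosen for its difference and its CpGs can share reads, so this is no separate support.

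Upstream of Slc32a1, the bin from -2000 to -1501 bp read 43.0% in KO 30 ppm, 23.3% in WT 30 ppm, 59.6% in KO 3 ppm and 20.5% in WT 3 ppm and was called at 3 ppm. The bin from -3500 to -3001 bp read 32.4%, 4.44%, 43.2% and 21.1% and was called at 30 ppm. Both lie within Gm14204, an annotated transcript of the opposite strand that begins just upstream of Slc32a1, and the antisense transcript Gm14205 overlaps the start of the gene. Bisulfite levels do not assign these CpGs to 1 gene or the other. Between them and the start, from -1500 to -501 bp, all libraries lay between 0 and 8.82%, the 0 being 0 of 39 reads, which allows up to 7.69% when the limit is set at 3 reads and 8.97% by the Wilson interval. The bin next to the start, from -500 to -1 bp, read 14.5% in KO 30 ppm, 6.2% in WT 30 ppm, 8.03% in KO 3 ppm and 2.06% in WT 3 ppm and was not called. The 3 bins after the start had fewer than 3 usable CpGs and were not tested. With 2.5 kb on each side the Slc32a1 promoter window differed by 12.0 points in the 30 ppm pair and by 20.2 points in the 3 ppm pair and was called in both.

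Slc10a4 (chr5:73006883-73012955, plus strand) differed in that its pooled promoter level lay between 61.2% and 75.9% and its called bins lay downstream of the start. Of its 30 usable promoter CpGs, 18 lie in the bin from +500 to +999 bp, at 31.5% in WT 30 ppm and 36.1% in WT 3 ppm. Some single CpGs there read 0% in both WT libraries, at 5 to 7 reads. The pooled level thus covers CpGs of low and of high level. The promoter level was 75.9% (71.1 to 80.03) in KO 30 ppm, 62.4% (57.4 to 67.2) in WT 30 ppm, 72.8% (68.7 to 76.5) in KO 3 ppm and 61.2% (56.4 to 65.7) in WT 3 ppm. The KO minus WT differences were 13.4 points (6.69 to 19.96, adjusted p = 0.00136) and 11.6 points (5.52 to 17.6, adjusted p = 0.00187, Fisher's exact test). Under a minimum of 10 reads, with 12 CpGs left, they were 3.65 and 7.69 points and were not called. The 30 ppm call was also lost with no coverage minimum (9.95 points), and the 3 ppm call with reads thinned to the shallowest library (9.98 points) and with 2.5 kb on each side (7.70 points). As unweighted means of CpG levels the differences were 23.0 and 16.1 points. The bin over the first 500 bp was not tested, so the middle of the island that spans the start is not part of these levels.

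In the bin from +500 to +999 bp (chr5:73007383-73007882), at the downstream edge of that island, the level was 65.6% (57 to 73.3) in KO 30 ppm, 31.5% (23.9 to 40.1) in WT 30 ppm, 54.1% (46.9 to 61.1) in KO 3 ppm and 36.1% (29.0 to 43.9) in WT 3 ppm. The difference was 34.2 points at 30 ppm (22.0 to 44.9, adjusted p = 1.4e-05) and 17.9 points at 3 ppm (7.31 to 27.9, adjusted p = 0.0268, Fisher's exact test). Both KO levels were above both WT levels there and in the next 2 bins, from +1000 to +1999 bp, which were called at 3 ppm and at 30 ppm respectively. These bins were chosen as called. From -5000 to -1501 bp the levels of the 4 libraries lay between 74.3% and 93.4%, and no bin there was called. The bin from -1500 to -1001 bp read 86.8% in KO 30 ppm, 62.9% in WT 30 ppm, 77.1% in KO 3 ppm and 66.7% in WT 3 ppm. It held 3 CpGs and was not called. The bins from -1000 to -501 bp and from -500 to -1 bp also had both KO levels above both WT levels and were not called.

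The authors' own caller placed a hypermethylated region (DMR) at Slc10a4 at 30 ppm, chr5:73007342-73007642, 459 to 759 bp after the start in the first exon, and none at 3 ppm. Its level was 64.9% in KO 30 ppm, 30.3% in WT 30 ppm, 51.3% in KO 3 ppm and 29.7% in WT 3 ppm over 16 CpGs. The KO minus WT difference within it was thus 34.6 points between the 30 ppm libraries and 21.6 points between the 3 ppm libraries, so the 3 ppm pair differed in the same direction in a region chosen on the 30 ppm pair. The test of whether the genotype difference depended on diet did not call the bin that holds most of it (adjusted p = 0.766, Wald test). Unadjusted, the p of that bin was 0.0484 by the same test, and 6.51% of all bins had one under 0.05. The sequence from 20 bases before the first to the last of these CpGs is shown because it carries the deposited DMR of this gene, with each CG in capitals.

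Slc10a4, chr5:73007415-73007643: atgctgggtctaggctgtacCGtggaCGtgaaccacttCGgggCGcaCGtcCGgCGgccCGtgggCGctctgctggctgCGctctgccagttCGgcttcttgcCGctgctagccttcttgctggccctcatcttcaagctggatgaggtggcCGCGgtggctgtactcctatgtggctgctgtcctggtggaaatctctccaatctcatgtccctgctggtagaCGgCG

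KO was above WT at 16 of the 16 CpGs at 30 ppm and at 14 of 16 at 3 ppm, at 5 to 11 reads per CpG and library. The region was called on the 30 ppm pair and neighbouring CpGs can share reads, so these counts are no separate support. The CG at base 80 of the stretch read 88.9% in KO 30 ppm, 28.6% in WT 30 ppm, 45.5% in KO 3 ppm and 14.3% in WT 3 ppm. The last CG, at base 228, read 60%, 55.6%, 63.6% and 50.0%. At this depth a single CpG does not resolve differences of that smaller size.

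**Figure D4:**
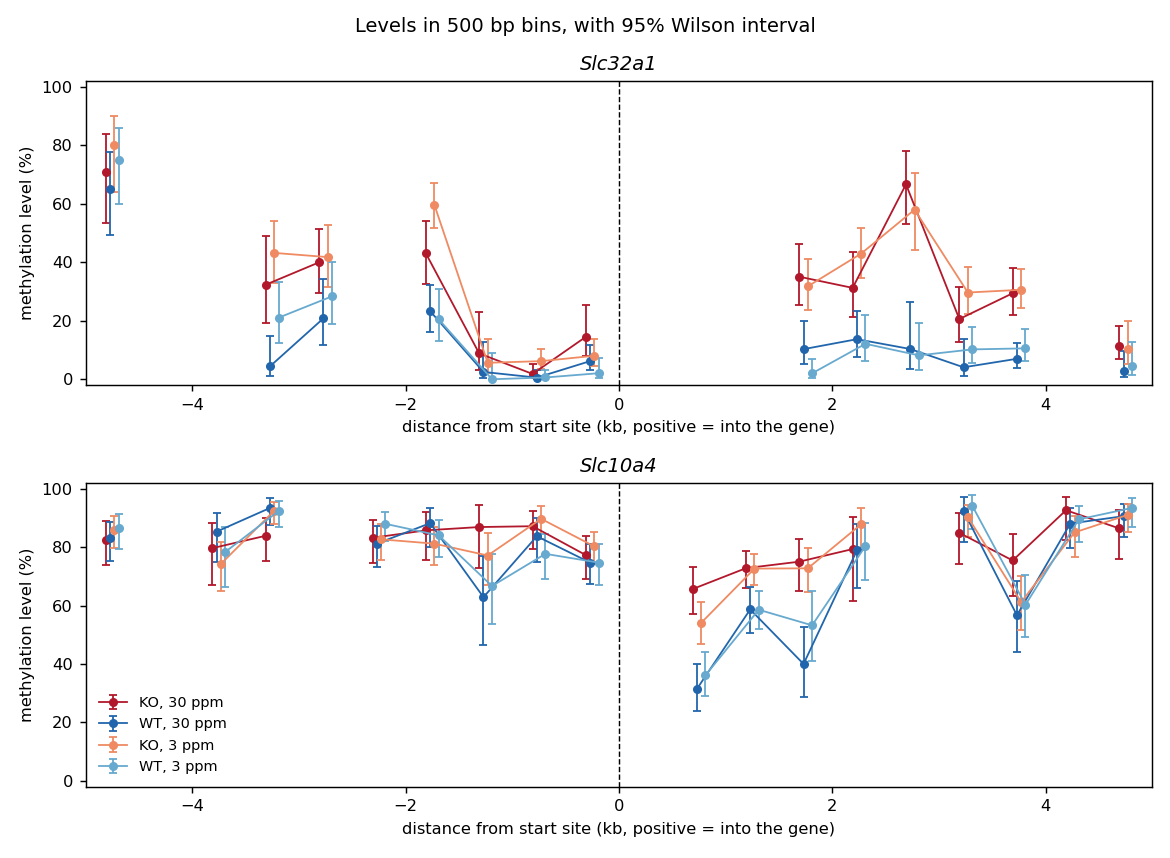
Methylation level (y axis, %) of 500 bp bins by distance from the start site (x axis, kb) at Slc32a1 (above) and Slc10a4 (below) in the 4 libraries, with 95% Wilson intervals. Lines break where a bin had fewer than 3 usable CpGs. Downstream of the start, the KO lines leave the WT lines from 1.5 to 4 kb into Slc32a1 and from 0.5 to 2 kb into Slc10a4.

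The profile of Slc10a4 could be compared with 164 of the 20807 genes, those that shared all 16 of its usable bins. Among these 164 the smallest root mean square difference over bins and libraries was 14.3 points, for the predicted gene Gm10717. Gm10720 followed with 14.4 and Sept4 with 14.5. The difference to be had from counting error alone was not computed. Slc32a1 had 13 usable bins, fewer than the 16 required, and was not compared.

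Slc18a3 (chr14:32462438-32464850, minus strand) had 7 called bins, as many as Slc32a1, over most of its single exon and beyond. The gene lies inside Chat, which encodes the acetylcholine-synthesising enzyme, is on the same strand and starts 1139 bp upstream. The promoter read 5.66% in KO 30 ppm, 1.19% in WT 30 ppm, 8.95% in KO 3 ppm and 3.58% in WT 3 ppm. Under a minimum of 10 reads, with 11 of its 50 CpGs left, the differences were -0.58 and -1.45 points. With no coverage minimum, over 78 CpGs, they were 7.43 and 8.55 points, and with 2.5 kb on each side, over 151 CpGs, 8.16 and 14.0 points, the last of which was called. The direction at the promoter was thus reversed under the stricter minimum alone among the alternatives run.

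The coding bin from +1500 to +1999 bp (chr14:32462851-32463350) was the best covered of the called bins, with 38 CpGs and 336 to 557 reads per library. It read 31.6% (27.7 to 35.8) in KO 30 ppm, 6.25% (4.12 to 9.37) in WT 30 ppm, 24.8% (21.4 to 28.5) in KO 3 ppm and 3.29% (1.97 to 5.45) in WT 3 ppm. The differences were 25.4 points (20.3 to 30.1, adjusted p = 1.18e-16) and 21.5 points (17.5 to 25.5, adjusted p = 2.26e-19, Fisher's exact test). It remained called in both diets under a minimum of 10 reads.

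Closer to the start the Slc18a3 differences were smaller. From +500 to +999 bp the level was 13.3% in KO 30 ppm, 0% in WT 30 ppm (0 of 108 reads, which allows up to 2.78% at 3 reads and 3.43% by the Wilson interval), 16.3% in KO 3 ppm and 5.99% in WT 3 ppm, called in both diets. From +1000 to +1499 bp it was 10.9%, 3.01%, 14.6% and 2.71%, called at 3 ppm, and in the first 500 bp no library exceeded 2.47%. In KO the bin from +1500 bp was thus the most methylated of the gene's 4 tested bins, and in WT none of these exceeded 6.25%. The bin that holds the end of the gene was not tested.

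Past the end of Slc18a3, within Chat, the bin from +2500 to +2999 bp read 75.7% in KO 30 ppm, 17.1% in WT 30 ppm, 57.4% in KO 3 ppm and 12.5% in WT 3 ppm, with differences of 58.6 and 44.9 points over 4 CpGs. The bin from +4000 to +4499 bp read 30.3%, 1.961%, 28.4% and 3.70% and was called in both diets. The bin from +4500 to +4999 bp read 42.4%, 25%, 61.7% and 6.76% and was called at 3 ppm. On the other side, the bin from -1500 to -1001 bp holds the start of Chat and read 51.8%, 20.7%, 46.7% and 21.4%, called in both diets. In these 4 bins, chosen as called, both KO levels were above both WT levels, and these bins cannot be assigned to Slc18a3 rather than to Chat.

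Among the glutamate transporters, the bin with the largest mean difference was in Slc17a7 (VGLUT1; chr7:45163949-45176142, plus strand), outside its promoter window. Its intronic bin from +1500 to +1999 bp (chr7:45165449-45165948) read 88.9% (77.8 to 94.8) in KO 30 ppm, 30.2% (18.6 to 45.1) in WT 30 ppm, 66.2% (55.4 to 75.7) in KO 3 ppm and 36.8% (25.5 to 49.8) in WT 3 ppm. The differences were 58.7 points (adjusted p = 1.03e-06) and 29.4 points (adjusted p = 0.024, Fisher's exact test). It was the one called bin of the gene, and the promoter, with 6 usable CpGs, read 54.6%, 50.0%, 59.6% and 55.8% and was not called. With 2.5 kb on each side, over 41 CpGs and with that bin inside, the difference was 14.3 points at 30 ppm, which was called, and 6.06 points at 3 ppm, which was not.

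Slc17a6 (VGLUT2; chr7:51622006-51671119, plus strand) had an unmethylated start and gained on both sides of it. The promoter read 7.46% in KO 30 ppm, 3.53% in WT 30 ppm, 8.43% in KO 3 ppm and 5.47% in WT 3 ppm, with 49 usable CpGs. In the intron, from +1500 to +1999 bp, the level was 44.9%, 6.17%, 32.3% and 4.35% in the same order, called in both diets, and from +2000 to +2499 bp it was 27.1%, 5.00%, 24.1% and 8.11%, called at 30 ppm. The bin from +4000 to +4499 bp, at 9%, 0.935%, 10.6% and 0% (0 of 104 reads, which allows up to 2.88% at 3 reads and 3.56% by the Wilson interval), was called at 3 ppm. Upstream, 2 bins from -1500 to -501 bp were called at 30 ppm, at 71.7% and 73.8% in KO against 50.4% and 35.7% in WT. In those 2 bins the 3 ppm differences were 9.25 and 6.61 points and were not called.

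Slc17a8 (VGLUT3; chr10:89574020-89621253, minus strand) was the one gene of the set without a CpG island over its start, and it was changed at the start itself. The promoter read 89.0% in KO 30 ppm, 73.2% in WT 30 ppm, 85.6% in KO 3 ppm and 75.1% in WT 3 ppm. The differences were 15.8 points (10.5 to 21.1, adjusted p = 7.07e-07) and 10.5 points (5.62 to 15.4, adjusted p = 0.000346, Fisher's exact test). They fell to 9.16 and 4.29 points with a minimum of 10 reads and to 8.41 and 6.06 points with 2.5 kb on each side, and were then not called. From -500 to -1 bp the level was 73.5%, 48.5%, 79.1% and 50.5%, called at 3 ppm, and from 0 to +499 bp it was 93.7%, 66.0%, 78.8% and 61.6%, called at 30 ppm. The authors' DMR at 30 ppm lay across the start, from -128 to +268 bp, and one at 3 ppm overlapped it. Over 5 CpGs the former read 57.6% in KO 30 ppm, 11.8% in WT 30 ppm, 54.4% in KO 3 ppm and 17.3% in WT 3 ppm.

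Slc18a2 (VMAT2; chr19:59260896-59296012, plus strand) showed no called bin, promoter or gene body. Its promoter rested on 6 usable CpGs and read 49.4% in KO 30 ppm, 47.4% in WT 30 ppm, 53.9% in KO 3 ppm and 39.2% in WT 3 ppm. The differences were 2.00 points (-14.6 to 18.4) and 14.7 points (0.669 to 27.7), with adjusted p-values of 0.968 and 0.129 by Fisher's exact test, so at this depth neither difference was resolved. With no coverage minimum, over 37 CpGs, they were -0.34 and 10.3 points, the second of which was called.

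Both plasma membrane transporters had called bins upstream of the start. In Slc6a3 (chr13:73536747-73578672, plus strand), the bin from -1000 to -501 bp read 53.7% in KO 30 ppm, 28.7% in WT 30 ppm, 65.6% in KO 3 ppm and 30.7% in WT 3 ppm. The bin from -500 to -1 bp read 22.6%, 1.67%, 20.3% and 0.98% in the same order. Both were called in both diets, and in these bins, chosen as called, the KO and WT levels did not overlap. The authors' DMRs placed the change from -650 to -358 bp at 30 ppm and from -650 to -439 bp at 3 ppm. A second one at 30 ppm, across the start, holds no CpG with 5 reads in all 4 libraries, so its level was not computed.

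In Slc6a5 (chr7:49910146-49963856, plus strand) the promoter read 10.1% in KO 30 ppm, 3.55% in WT 30 ppm, 8.39% in KO 3 ppm and 4.13% in WT 3 ppm. The intronic bin from +500 to +999 bp read 31.9%, 8.48%, 20.1% and 8.33% and was called in both diets. Upstream, the bin from -3000 to -2501 bp read 27.0%, 6.06%, 27.5% and 7.69%, also called in both. The bins on its sides were called at 30 ppm, at 61.2% in KO against 33.0% in WT from -3500 to -3001 bp and at 12.5% against 2.31% from -2500 to -2001 bp. At the start, from -500 to +499 bp, no library exceeded 2.34%, so the changed bins stood on both sides of a start that remained unmethylated.

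The authors' DMR lists come from another caller on the same libraries. Hypermethylated DMRs of KO against WT lay within 5 kb of 6 of the 9 starts at 30 ppm, against 6.41% of all genes, and of 5 of the 9 at 3 ppm, against 7.23%. The genes were Slc32a1, Slc17a7, Slc17a8, Slc18a3 and Slc6a3 in both diets and Slc10a4 at 30 ppm. The lists of both diets together held 16 such regions, 7 at 30 ppm and 9 at 3 ppm, 168 to 1380 bp long. Several of them overlap between the diets, so there were fewer separate places than regions. No hypomethylated region lay there, which 0.0433% of genes had at 30 ppm and 0.0192% at 3 ppm. No region of a diet comparison lay there either, against 0.135% (higher at 30 ppm) and 0.0433% (lower) of genes in KO and 0.130% and 0.0529% in WT. In the 9 DMRs called at 3 ppm the 30 ppm difference was 21.5 to 68.8 points, and in the 6 called at 30 ppm with usable CpGs the 3 ppm difference was 21.5 to 43.7 points. WT levels in them lay between 1.43% and 37.5%.

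Over whole gene bodies 2 of the 9 genes were called higher in KO in each diet, against 3.53% of all gene bodies at 30 ppm and 3.41% at 3 ppm, and none lower, against 0.114% in each diet. The 2 were Slc32a1 and Slc18a3, the 2 shortest genes of the set and those with the lowest body levels. Slc32a1 read 30.3% in KO 30 ppm, 8.03% in WT 30 ppm, 33.2% in KO 3 ppm and 8.09% in WT 3 ppm, differences of 22.3 points (17.5 to 27.0) and 25.1 points (20.7 to 29.4). Slc18a3 read 17.0%, 3.40%, 16% and 3.81%, differences of 13.6 points (11.3 to 15.8) and 12.2 points (10.2 to 14.3). For both genes the adjusted p was at most 6.31e-17 in either diet by Fisher's exact test.

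The other 7 gene bodies were mostly methylated, between 54.4% and 88.6%, and their differences ran from 1.23 to 9.76 points in the 30 ppm pair and from -0.30 to 6.74 points in the 3 ppm pair. The Slc10a4 body, 82.1% in KO 30 ppm, 72.4% in WT 30 ppm, 80.2% in KO 3 ppm and 73.5% in WT 3 ppm, came closest to the threshold of 10 points. The 9 genes had a median of 5.26 points in the 30 ppm pair, beside 1.99 points over all gene bodies, and of 3.02 points in the 3 ppm pair, beside 0.947 points.

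**Figure D5:**
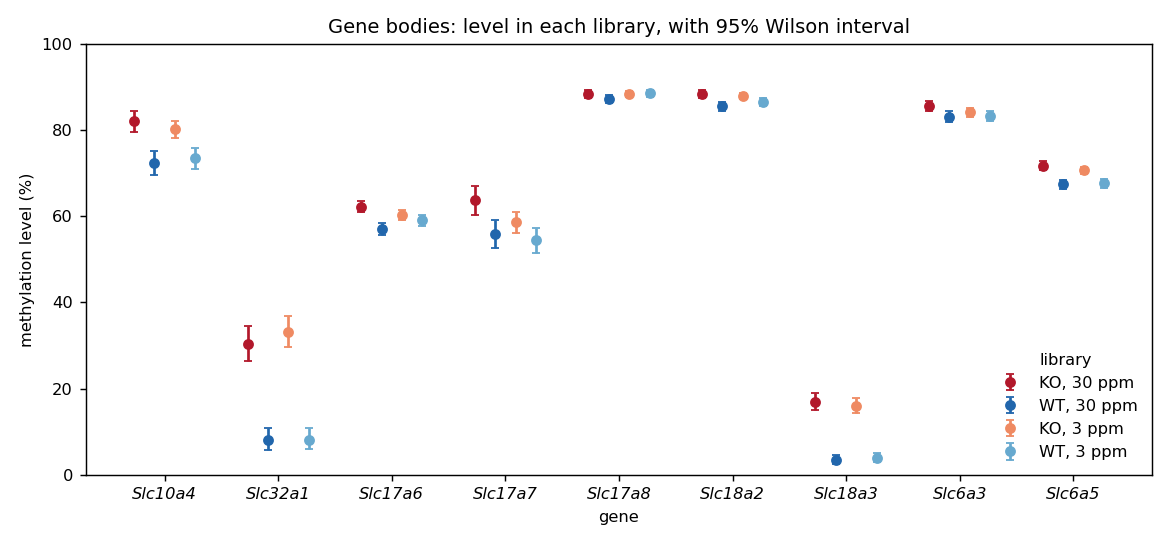
Methylation level (y axis, %) of each gene body (x axis) in the 4 libraries, with 95% Wilson intervals. Slc32a1 and Slc18a3 stand at 8.09% or below in WT and at 16% to 33.2% in KO, while the other gene bodies lie between 54.4% and 88.6% with smaller gaps.

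The diet comparisons called no transporter promoter, bin or gene body in either genotype. For 30 against 3 ppm in KO, 0.632% of all promoters were called higher and 0.567% lower, and in WT 0.447% and 0.346%. Among all bins 0.0320% and 0.0219% were called in KO and 0.0118% and 0.0223% in WT, and among all gene bodies 0.144% in each direction in KO and 0.233% and 0.238% in WT. At an unadjusted p under 0.05 by Fisher's exact test, 15 of the 122 bins differed between diets in KO (12.3%, against 6.35% of all bins) and 7 in WT (5.74%, against 5.97%). The smallest adjusted p of any bin was 0.154, at Slc17a8 from +1500 to +1999 bp in KO, where the level was 81.0% at 30 ppm and 61.0% at 3 ppm. At the Slc17a7 bin from +1500 bp the KO level was 88.9% at 30 ppm and 66.2% at 3 ppm, with an adjusted p of 0.426. Among promoters 0 of 9 in KO and 1 of 9 in WT, Slc18a3, had an unadjusted p under 0.05, against 12.7% and 11.4% of all. Among gene bodies it was 2 of 9 in each genotype, against 23.1% and 23.3%.

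Whether the KO minus WT difference itself depended on diet was tested by a Wald test on the difference of log odds ratios. It called 0 of 9 promoters, against 1.35% of all, and 0 of 122 bins, against 0.0377%. At an unadjusted p under 0.05 there were 0 promoters, against 13%, and 6 bins, against 6.51%. One gene body, Slc17a6, was called, against 16.1% of all gene bodies. It read 62.2% in KO 30 ppm, 57% in WT 30 ppm, 60.3% in KO 3 ppm and 59.1% in WT 3 ppm, which is 5.26 points at 30 ppm (3.34 to 7.17) and 1.19 points at 3 ppm (-0.48 to 2.85), with an adjusted p of 0.0156.

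The promoters of 32 other genes of transmitter handling were tested, and 4 were called higher in KO at 30 ppm and 11 at 3 ppm, with none lower and none called for diet. Over all promoters 15.4% were called higher at 30 ppm and 16.6% at 3 ppm. Of 15 other plasma membrane transporters 2 were called at 30 ppm and 6 at 3 ppm. Of 6 other vesicle proteins 1 was called in each diet, and of 11 synthesis enzymes 1 and 4. The 32 had median differences of 5.65 points in the 30 ppm pair and 5.76 points in the 3 ppm pair, beside 4.64 and 5.78 points for the 9 genes. The 3 ppm libraries had the greater mean depth, and the counts of these lists were not compared at equal depth.

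Called in both diets were Chat, at 67.9% in KO 30 ppm, 45.7% in WT 30 ppm, 57.2% in KO 3 ppm and 41.2% in WT 3 ppm, and Slc6a13, a GABA transporter, at 67%, 52.7%, 67.9% and 50.0%. The Chat promoter window overlaps that of Slc18a3. At 3 ppm Hdc, which makes histamine, was called at 77.3% in KO against 56.9% in WT. Slc6a2, the noradrenaline transporter, was called there at 65.8% against 51.6%, and Slc6a4, the serotonin transporter, at 25.2% against 11.7%. Slc22a3, a low-affinity monoamine carrier, was called at 26.1% against 7.33%, and Slc6a11, a GABA transporter, at 80.2% against 67.2%. At 30 ppm Slc6a9, the glial glycine transporter, was called at 75.0% against 57.4%. Gad2 and Th, which make GABA and L-DOPA, were not called, at 1.32% to 2.5% and 88.0% to 91.6% over the 4 libraries.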

How the data were processed

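CpG tables of 4 WGBS libraries were analysed, with groups taken from the labels. The authors trimmed reads (Trim Galore 0.6.10), aligned them to GRCm38 (Bismark 0.23.1), removed duplicates and summed the strands of a CpG. Tables as deposited hold the methylated fraction and the unnormalised count of reads per CpG, and list CpGs with 2 or more reads. Their positions count from 0 and were raised by 1, after which all 2822 CpGs at the 9 genes lay on a CG. The deposited DMR lists (DSS, single libraries) gave positions only, and lists that pool both directions were not used.

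Methylated reads were summed over CpGs that reached 5 reads in every library, in regions with at least 3 such CpGs: promoters (start site with 1 kb on each side), 500 bp bins to 5 kb, and gene bodies of all autosomal protein-coding genes. Pairs of libraries whose labels differ in genotype or in diet were tested by Fisher's exact test (two-sided, Benjamini-Hochberg over all regions of a kind), called at an adjusted p under 0.05 and 10 points. The diet dependence of the KO minus WT difference was tested by a Wald test on log odds ratios (0.5 added to counts). Limma 3.58.1 (R 4.3.3) was fitted to log2((methylated + 1)/(unmethylated + 1)) with genotype and diet. Intervals are 95% Wilson for levels and Newcombe for differences, and a level of 0 is also given the limit of 3 reads of its total. They cover counting error only, and since 1 read is counted at each CpG it covers, intervals and p-values can be too small. Alternatives changed the coverage minimum, depth, window, bin size, start site, SNP-like CpGs, the overlap for DMRs and the limma scale.

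All 9 genes are named. Bins are named if called in either KO against WT comparison, with the 2 of largest mean difference in full where over 4 neighbours were called. Of the other transmitter genes, called promoters are named by size of the mean difference, at most 8, and Gad2 and Th were added after their values were seen. The genes, lists and tests were chosen with earlier results of these data known.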

Additional observations from a re-analysis of the deposited data

Results flagged for a closer look

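The KO minus WT difference of the Slc17a6 gene body was larger at 30 ppm than at 3 ppm, at 5.26 points against 1.19 points, with an adjusted p of 0.0156 by the Wald test of the difference over all gene bodies. Both differences are below 10 points, and 16.1% of all gene bodies passed the same test. The diets are represented by 1 pair of libraries each, so the difference compares these pairs and not the diets.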

How the results depend on the processing

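Counting error and 1 library per group limit all results, and at the CG-dense starts few CpGs were covered. No paired analysis was possible because each group has 1 sample, so no replicate number pairs libraries, although limma with diet as a term compares genotypes within diets. Of the alternatives to reported counts above 0, 27 stayed within 1.5 times the count and 14 did not, 5 of them falling to 0. Counts reported as 0 were 0 in all 38 of their alternatives. With a minimum of 10 reads, which left 8 promoters and 59 bins, 1 promoter was called in each diet (against 13.8% and 14.4% of all promoters), 7 bins at 30 ppm and 6 at 3 ppm, and 1 gene body at 3 ppm, while the bins called over the genome fell to 4596 (3.13%) and 4825 (3.28%) and the gene bodies at 3 ppm to 406. Thinning to the shallowest library left 14 bins at 3 ppm, with 6349 (2.68%) over the genome. Limma called 1 promoter with a pseudocount of 0.5, 0 on the fraction scale, 0 with a minimum of 10 reads, 4 without the term for diet, and 0 to 1 when a library and with it that term were left out, and on bins it called 0 where Fisher's exact test called 15 in both diets. The promoters called by limma over the genome were 1495 as reported, 876 with a pseudocount of 0.5, 0 on the fraction scale, 0 with a minimum of 10 reads, 1986 without the term for diet and 103 to 894 without that term and 1 library. Of the promoter differences 3 reversed: Slc18a2 at 30 ppm with no coverage minimum (-0.34 points), and Slc18a3 with a minimum of 10 reads (-0.58 points at 30 ppm and -1.45 points at 3 ppm). The first uses 37 CpGs in place of 6 and the others 11 in place of 50. The other promoter differences kept their direction, 9 falling below the threshold and 5 passing it.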
